A study of Drosophila melanogaster with 4 samples.

Results

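The Hox genes of Drosophila melanogaster lie in 2 complexes on chromosome arm 3R, and the placement of the histone variant H2Av across both was read from the authors' lists of enriched regions, called clusters. The complexes were taken as fixed intervals on release 5 of the genome, set by position and not by H2Av values: 3R from 2480000 to 2830000 for the Antennapedia complex (lab, pb, Dfd, Scr and Antp) and 3R from 12480000 to 12800000 for the bithorax complex (Ubx, abd-A and Abd-B). Every cluster sharing at least 1 bp with an interval was counted, which gave 32 of the 6778 clusters of replicate 1 and 23 of the 6672 clusters of replicate 2. The authors' combined list of both replicates had 50 such clusters of 7576. Low and high edge below mean the ends of an interval with the lower and higher coordinate.

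The samples were head nuclei of wild-type Oregon-R flies of mixed adult age, raised in population cages, with H2Av precipitated from formaldehyde-fixed, sonicated chromatin by an antibody named 9751. There were 2 ChIP libraries and 2 inputs, and the labels tie each input to 1 ChIP library. The labels number the replicates without stating that they are independent fly populations, and differences between them may therefore be technical only. Whole heads mix neurons, glia, photoreceptors, muscle and fat body, so a cluster is an average over cell types. The lists hold regions and no gene values, so the labelled tissue could not be checked against its markers. They hold no read counts either, so depth is unknown, and sequence without a cluster was simply not called enriched.

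Hox genes encode homeodomain transcription factors that give body segments their identity, and in flies their order along the chromosome follows the order of the segments they pattern. Outside their segments they are held silent by Polycomb group proteins, which spread over the complexes as broad domains marked by methylation of histone H3. H2Av is the only H2A variant of Drosophila. It is placed in nucleosomes downstream of the start sites of transcribed genes, and it is also found in silenced chromatin.

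In the gene order of the RefSeq annotation on release 6, lab comes first and Antp last in the Antennapedia complex, and Ubx first and Abd-B last in the bithorax complex. All 8 Hox genes were matched by symbol. The 5 Hox genes of the Antennapedia complex act in the head and thorax: lab in the front of the head and the midgut, pb in the mouthparts, Dfd in the mandibular and maxillary segments, Scr in the labial segment and the first legs, and Antp in the thorax. They are interleaved with 15 other protein-coding genes, among them the Ccp84A cuticle protein genes between lab and pb, and the embryonic patterning genes zen, bcd and ftz. The bithorax complex holds 3 Hox genes, Ubx for the hind thorax, abd-A for the front of the abdomen and Abd-B for its rear, with 3 other protein-coding genes among them. Cluster coordinates are on release 5 and were not moved to release 6, so single clusters are not assigned to genes, exons, introns or UTRs here.

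H2Av clusters covered less of both complexes than of the rest of 3R. Clusters covered 13.6% of the Antennapedia complex in replicate 1 and 9.21% in replicate 2, with a mean of 11.4 ± 3.13% (SD, n = 2). They covered 8.91% and 9.08% of the bithorax complex, with a mean of 8.99 ± 0.124% (SD, n = 2). The rest of 3R was covered to 24.4% and 25.6%, with a mean of 25.0 ± 0.845% (SD, n = 2). The ratio to the rest of 3R was thus 0.559 and 0.360 for the Antennapedia complex and 0.365 and 0.355 for the bithorax complex in the 2 replicates. The gap to the rest of 3R was -13.5 ± 3.97 percentage points for the Antennapedia complex and -16.0 ± 0.721 for the bithorax complex, larger than the spread between replicates in both. Coverage of the complexes differed from each other by 4.73 points in replicate 1 and 0.130 in replicate 2 (2.43 ± 3.25, Antennapedia minus bithorax), which is within that spread. With 2 replicates an exact sign-flip permutation test cannot give a two-sided p below 0.5, so no test was made of these or the following differences, and places along 3R are used as a description only.

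**Figure D1:**
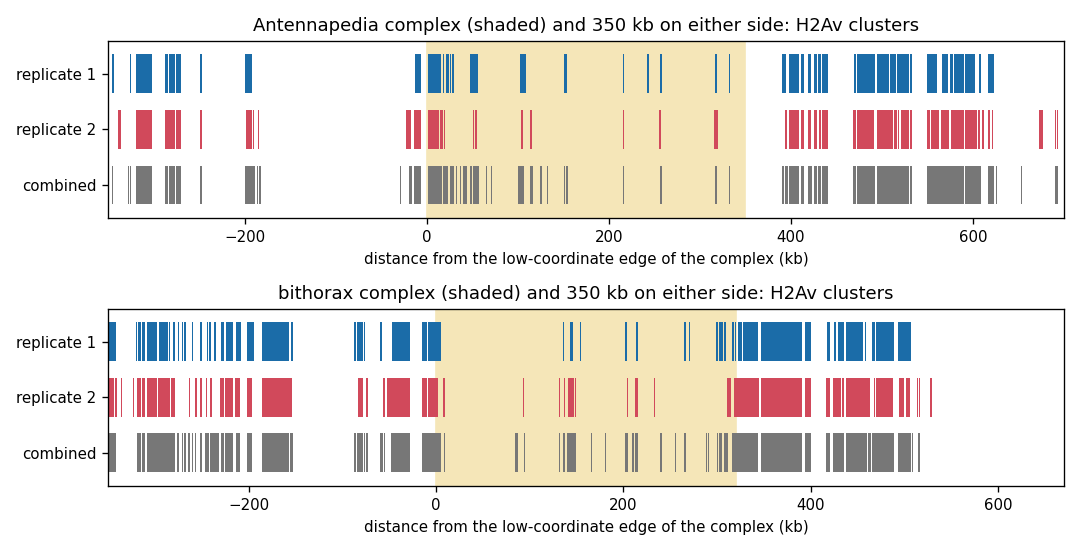
Each bar is an H2Av cluster in the 2 replicate lists and the authors' combined list, plotted by distance in kb from the low edge of the Antennapedia complex (top) and the bithorax complex (bottom); shading marks the complex. Replicates covered 13.6% and 9.21% of the Antennapedia complex and 8.91% and 9.08% of the bithorax complex, in scattered narrow bars, while dense blocks end at both edges of the bithorax complex.

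Sparse coverage of this degree was not particular to the Hox complexes. Windows of the same length, laid every 10 kb over the rest of 3R so that neighbours overlap, had a median coverage of 22.0% for the length of the Antennapedia complex, and 12.6% of the 2619 windows were covered less than the complex. This share was 21.6% by replicate 1 and 7.75% by replicate 2, so it rests on which replicate is read. For the bithorax complex the median window was at 22.1%, and 9.78% of 2628 windows were covered less, with 11.0% and 9.06% by replicate. The lowest window of that length had no cluster in either replicate.

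**Figure D2:**
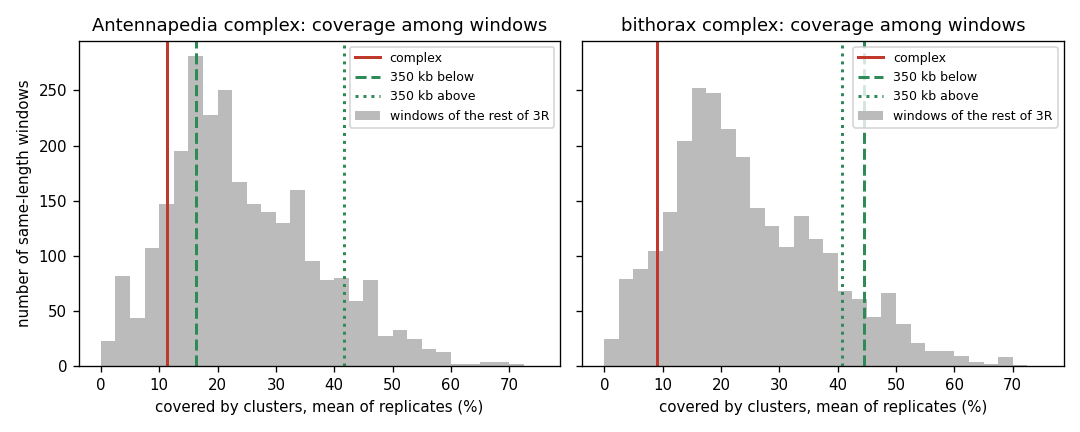
Histograms show the percent of each same-length window of the rest of 3R covered by clusters (x axis, mean of replicates) against the number of windows; solid lines mark the complex, and dashed and dotted lines the 350 kb below and above it. The Antennapedia complex at 11.4% and the bithorax complex at 8.99% lie in the lower part of the spread, with 12.6% and 9.78% of windows below them.

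The bithorax complex stood out from its surroundings more than from the arm. The 350 kb below it was covered to 44.4% and 44.6% (44.5 ± 0.139%, SD, n = 2) and the 350 kb above it to 39.5% and 41.9% (40.7 ± 1.69%, SD, n = 2). These flanks ranked above 91.3% and 87.5% of 350 kb windows of the rest of 3R. The complex was 33.1 points below its pooled flanks in replicate 1 and 34.2 points below them in replicate 2, a difference of -33.6 ± 0.792 (SD, n = 2). When each window of the rest of 3R was set against its own 350 kb flanks in the same way, 24 of 2558 (0.938%) had a lower value. Neighbouring windows overlapped here as well, so the 24 need not be separate places. The flanks of a window could reach into a complex. This measure was added after the data had been seen.

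Large steps in coverage lay at both edges. In the 50 kb below the low edge, the side of Ubx in the release 6 order, coverage was 67.6% and 72.4% in the replicates. In the first 50 kb inside it was 10.3% and 8.45%. The step, inside minus outside, was -60.6 ± 4.71 points (SD, n = 2). At the high edge, the side of Abd-B, the last 50 kb inside was covered to 24.3% and 12.0% and the next 50 kb outside to 88.5% and 94.0%, a step of -73.1 ± 12.6 points (SD, n = 2). Among 2694 positions along the rest of 3R, 3.45% had a step of either sign as large as that at the low edge and 0.742% as large as that at the high edge. The flanks were not dense throughout and held steps of like size. Below the complex, a 50 kb segment at 71.7% was followed by one at 0%. Above it, a segment at 62.1% was followed by 3 segments at 1.39%, 0% and 0%, which end the flank. Inside the high edge, the last 20 kb was already at 39.7%. The nearest protein-coding neighbours in the release 6 order are modSP, a serine protease gene of the immune response, before Ubx, and VhaM9.7-d, a gene for a vacuolar proton pump subunit, after Abd-B.

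The Antennapedia complex had no such drop at its edges. The 350 kb below it was itself sparsely covered, at 15.0% and 17.7% (16.4 ± 1.97%, SD, n = 2), and the 350 kb above it was covered to 40.3% and 43.0% (41.7 ± 1.87%, SD, n = 2). Against both flanks pooled the complex lay at -14.0 and -21.1 points in the replicates, and 13.1% of 2549 windows of the rest of 3R had a lower value. At the low edge, the side of lab, the first 50 kb inside was covered more than the 50 kb outside, at 46.7% and 33.5% against 14.3% and 26.1%. At the high edge, the side of Antp, the step was -4.87 and 2.69 points, so its direction differed between replicates. The low coverage ran on past that edge: the first cluster beyond it began 40.7 kb away in replicate 1 and 44.1 kb away in replicate 2.

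**Figure D3:**
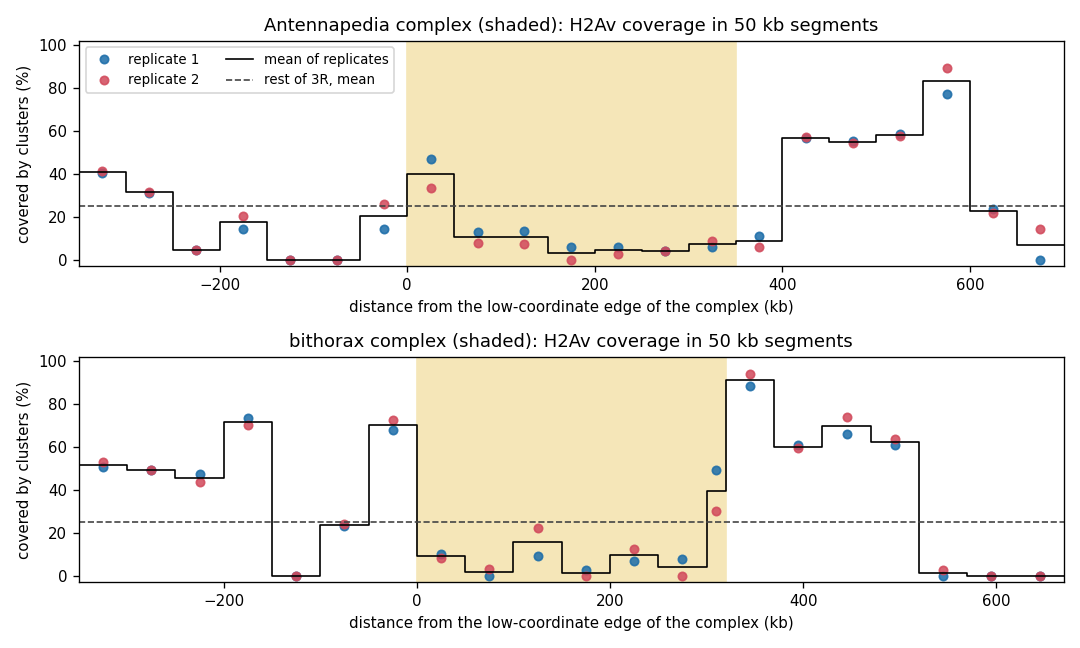
Points give the percent covered by clusters (y axis) in each replicate for 50 kb segments (20 kb for the last one inside the bithorax complex), against distance in kb from the low edge of the complex; the line is the mean, the dashed line the rest of 3R at 25.0%, and shading marks the complex. The first segment of the Antennapedia complex is at 40.1% and the segments from 50 kb on stay at or below 10.5%, whereas the bithorax complex lies between segments at 70.0% and 91.2%.

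Within the Antennapedia complex cluster coverage was highest at the lab end and dropped after the first 50 kb. The first 50 kb was covered to 40.1 ± 9.32%, the next 50 kb to 10.4 ± 3.85% and the 50 kb after that to 10.5 ± 4.42% (SD, n = 2). From 150 kb to the high edge, which is the side of Antp in the release 6 order, the 4 segments of 50 kb had mean coverages from 3.00% to 7.48%, with no steady trend. In replicate 2 the last of them, at 8.89%, was above the segments from 50 to 100 kb and from 100 to 150 kb, at 7.71% and 7.33%. The complex had its widest and highest-scoring cluster 1.42 kb inside the low edge. It ran from 2481415 to 2492629 in replicate 1 (11.2 kb, score 1.57) and from 2481585 to 2493794 in replicate 2 (12.2 kb, score 1.60). Within 20 kb of the low edge, 4 further overlaps of the replicates measured between 515 and 853 bp. The widest cluster held 23.5% and 37.9% of the covered length of the complex. Scores are the authors' own, on a scale the files do not state, and serve here only to rank clusters within a list.

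Further in, the clusters of the Antennapedia complex were small and far apart. A cluster from 2530246 to 2536821 in replicate 1 (6.58 kb, score 1.39) matched 2 clusters of replicate 2, from 2530952 to 2532455 and from 2533294 to 2535642 (scores 0.633 and 0.800). The next site in both lists lay at 2584148 to 2587538 in replicate 1 and 2584151 to 2586352 in replicate 2 (scores 0.923 and 0.837). Beyond it only 3 sites were shared, all more than 200 kb from the low edge. The first ran from 2695553 to 2697004 in replicate 1 and from 2695400 to 2696882 in replicate 2 (scores 0.535 and 0.472). The second ran from 2736505 to 2738480 and from 2735568 to 2737596 (scores 0.542 and 0.698), and the last from 2797061 to 2798556 and from 2795208 to 2799651 (scores 0.521 and 0.977). Of the 10 clusters of replicate 2, 1 had no partner in replicate 1 (2593826 to 2595287). In replicate 1, 10 of 19 had none, and these were between 1377 and 3177 bp wide.

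In the bithorax complex nearly all H2Av shared by both replicates lay at the edges or at 2 inner sites. The cluster over the low edge ran from 12471341 to 12485165 in replicate 1 and from 12471246 to 12482329 in replicate 2 (scores 1.64 and 1.79), of which 5.17 kb and 2.33 kb were inside the complex. The cluster over the high edge ran from 12798284 to 12824445 in replicate 2 (26.2 kb, of which 1.72 kb was inside) and met a 1420 bp cluster of replicate 1. The inner site with the most shared sequence lay 142.7 kb from the low edge, from 12622704 to 12626006 in replicate 1 and from 12620495 to 12626718 in replicate 2 (scores 0.726 and 0.913). The other lay from 12693349 to 12695214 in replicate 1 and from 12692265 to 12695539 in replicate 2 (scores 0.528 and 1.22). A further overlap at 12616363 was 194 bp long. Together these 3 inner overlaps made up 5363 bp, or 1.68% of the complex. The highest segment mean inside was 39.7 ± 13.6% (SD, n = 2), in the last 20 kb, at the side of Abd-B. Apart from it the segments ran from 1.38% to 15.7%.

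The longest uncovered stretch of the Antennapedia complex was shorter than the median for windows of its length, and that of the bithorax complex was near it. The longest stretch without a cluster in either replicate was 61.4 kb in the Antennapedia complex, from 2634024 to 2695399, and 82.9 kb in the bithorax complex, from 12489791 to 12572736. Each length was set almost wholly by 1 replicate. In the Antennapedia complex replicate 1 alone left 61.5 kb open and replicate 2 alone 100.1 kb. In the bithorax complex replicate 1 alone left 130.0 kb open and replicate 2 alone the same 82.9 kb. The 61.4 kb and 82.9 kb stretches ranked 68 and 54 among the 1478 such stretches of 3R. Windows of the same length as each complex had a median longest stretch of 93.5 kb and 87.8 kb, and 28.7% and 46.4% of them had a shorter one than the complex. The next longest were 56.7 kb (2738481 to 2795207) and 45.3 kb (2536822 to 2582102) in the Antennapedia complex and 46.9 kb (12634954 to 12681899) and 36.5 kb (12574287 to 12610808) in the bithorax complex. Stretches over 20 kb made up 64.0% of the Antennapedia complex and 70.2% of the bithorax complex, against 53.8% of the rest of 3R. The combined list placed 1 cluster with 1.07 kb in the 61.4 kb stretch and 2 clusters with 2.49 kb in the 82.9 kb stretch. The 82.9 kb stretch begins 9.79 kb inside the low edge of the bithorax complex, the side of Ubx.

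Counted in 10 kb bins, 8 of 35 bins of the Antennapedia complex and 6 of 32 bins of the bithorax complex held a cluster in both replicates, against 42.5% of the 2724 bins of the rest of 3R. Bins at least 50% covered in both replicates numbered 2 of 35 and 0 of 32, against 21.1% of bins of the rest of 3R. Bins with no cluster in either replicate were 22 of 35 and 19 of 32, against 47.5%. The contrast was thus greater for filled bins than for empty ones. The 350 kb below the Antennapedia complex had the same counts as that complex, 8 of 35 in both replicates and 22 of 35 in neither. At least 50% covered in both were 5 of its 35 bins. A cluster in both replicates lay in 23 of 35 bins above the Antennapedia complex. Below and above the bithorax complex it was 27 and 18 of 35.

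The clusters in the complexes were narrow. Their median width was 1560 and 2115.5 bp in the Antennapedia complex (replicates 1 and 2) and 1614 and 1896 bp in the bithorax complex, against 3291 and 3241 bp in the rest of 3R. In replicate 1, 24 of 32 clusters of both complexes were narrower than 2 kb (75.0%), against 25.8% of 1351 in the rest of 3R. In replicate 2 it was 12 of 23 (52.2%), against 26.9% of 1443. They also scored low: 3 of 32 in replicate 1 and 4 of 23 in replicate 2 reached the upper 50% of their list by score, against 44.4% and 49.4% of clusters in the rest of 3R. By number, the bithorax complex had 40.6 clusters per Mb in each replicate and the Antennapedia complex 54.3 and 28.6, against 49.6 and 53.0 in the rest of 3R. In the combined list the order was the other way, with 71.4 per Mb in the Antennapedia complex and 78.1 in the bithorax complex, against 56.3 in the rest of 3R. Median widths in that list were 1775 and 1497 bp in the complexes, against 3058 bp in the rest of 3R. Narrow width thus went with the low coverage in every list. A low number of clusters went with it for the bithorax complex in both replicates and the Antennapedia complex in replicate 2. It did not for the Antennapedia complex in replicate 1, or for either complex in the combined list.

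**Figure D4:**
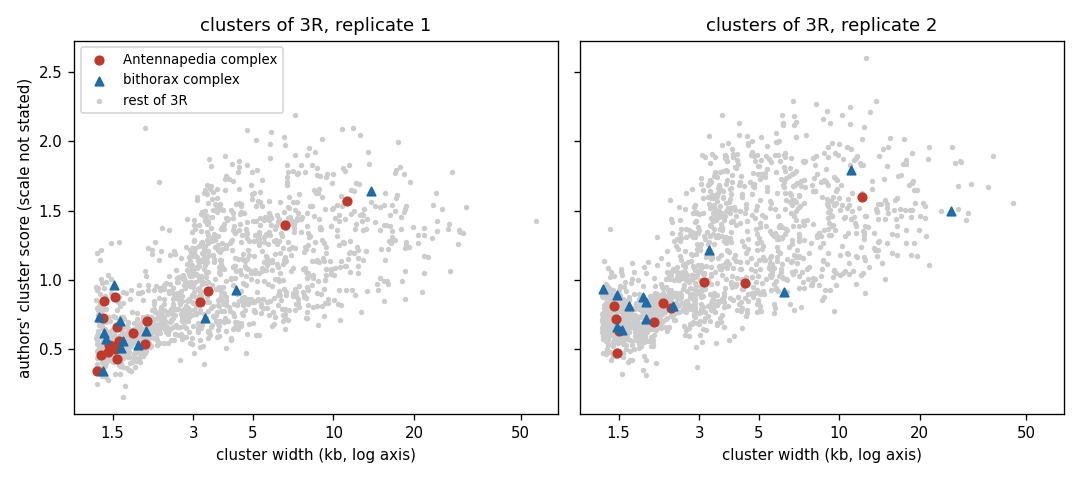
Each point is a cluster of 3R, by its width in kb (x axis, log scale) and the authors' score (y axis, scale not stated), in replicate 1 (left) and replicate 2 (right); red circles are in the Antennapedia complex, blue triangles in the bithorax complex and grey points in the rest of 3R. Most clusters of the complexes sit at the narrow, low-scoring end, with 24 of 32 and 12 of 23 under 2 kb.

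By length, the replicates placed clusters in the complexes less alike than elsewhere on 3R. Both replicates shared 42.3% of the length that at least 1 of them called in the Antennapedia complex and 18.7% in the bithorax complex, against 71.2% in the rest of 3R. The flanks did not share this: the value was 72.7% and 74.1% below and above the Antennapedia complex and 71.0% and 83.9% below and above the bithorax complex. Each complex was also set against windows of its length within 3 percentage points of its coverage, a comparison added after the data had been seen. The median there was 63.6% over 385 windows for the Antennapedia complex, of which 38 (9.87%) had a lower share, and 59.5% over 254 windows for the bithorax complex, of which 0 had a lower share and the lowest had 22.2%. Neighbouring windows overlapped here too, so the 385 and 254 windows are far fewer separate places. By number, 9 of 19 clusters of replicate 1 in the Antennapedia complex overlapped a cluster of replicate 2, and 5 of 13 in the bithorax complex, against 84.2% in the rest of 3R. Of the clusters of replicate 2, 9 of 10 in the Antennapedia complex (90.0%) overlapped one of replicate 1, and 5 of 13 in the bithorax complex, against 78.2% in the rest of 3R. The lower agreement by number thus held in both directions for the bithorax complex, and for the Antennapedia complex only when read from replicate 1.

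Width moved with this result. Among clusters narrower than 2 kb, 9 of 24 in replicate 1 and 4 of 12 in replicate 2 touched the other list in the complexes (37.5% and 33.3%), against 54.9% and 42.3% in the rest of 3R. Among wider ones it was 5 of 8 and 10 of 11, against 94.4% and 91.4%. The part of width or score in the agreement of replicates was not tested.

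**Figure D5:**
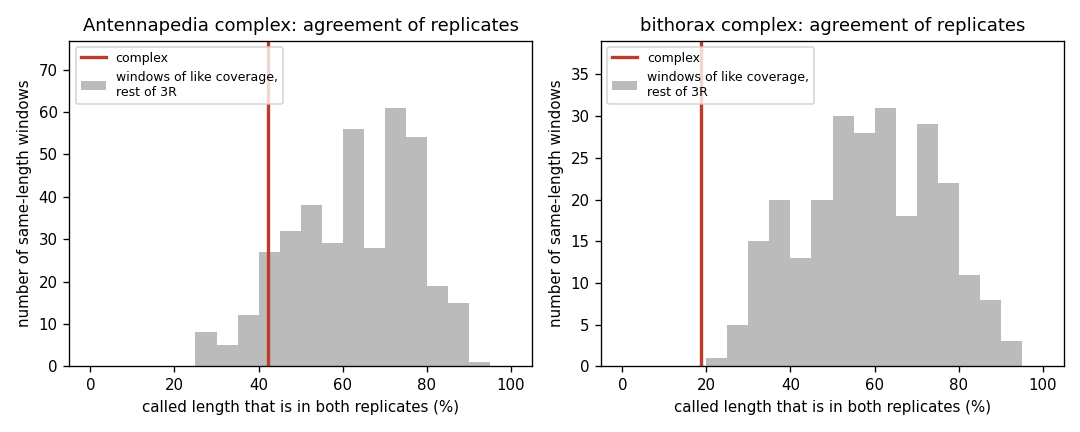
Histograms show, for same-length windows of the rest of 3R with coverage within 3 points of the Antennapedia complex (left) or the bithorax complex (right), the percent of called length found in both replicates (x axis) against the number of windows; red lines mark the complexes at 42.3% and 18.7%. The bithorax complex lies below all 254 of its windows, which overlap their neighbours and are not separate places.

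The authors' combined list filled in more of the complexes than of the rest of the arm. It covered 18.7% of the Antennapedia complex and 16.2% of the bithorax complex, against 29.0% of the rest of 3R, which left the complexes below the rest by a smaller factor than in the replicate lists. It had 25 clusters in each complex. Of these, 9 in the Antennapedia complex and 8 in the bithorax complex touched no cluster of either replicate (36.0% and 32.0%), against 15.1% of its 1534 clusters in the rest of 3R. Their median width was 1255 and 1233 bp, close to the 1251 bp of such clusters in the rest of 3R. The combined list holds clusters down to 1001 bp, and each replicate list down to 1301 bp. As a share of covered length, 28.7% and 29.2% was in neither replicate list, against 7.51% in the rest of 3R. In this list 17 of 35 bins of the Antennapedia complex and 17 of 32 of the bithorax complex held a cluster, against 51.7% in the rest of 3R, so by presence alone the complexes were near the rest of the arm.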

How the data were processed

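H2Av ChIP-seq of adult fly heads was read from 3 lists of clusters: 1 for each of 2 ChIP replicates, each tied to its own input by the labels, and 1 combined list. Per the submitters' processing notes, Bowtie 0.12.7 aligned the reads. The file headers give FlyBase release 5 as the build. Not given in the sources used here: the caller, its threshold and how the combined list was made. The authors deposited 1 score per cluster, whose scale no header states. Read depth is unknown, and the inputs were not analysed here except through the calls.

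Coverage, windows (every 10 kb, not touching a complex; for the flanks, not touching a flank either), uncovered stretches and overlaps (1 bp) were computed on 3R with numpy 2.4.6 under Python 3.11.15, and the code was tested on simulated lists. Values are given per replicate with mean and SD. No p-value was computed. The genes, intervals and comparisons were chosen with earlier results of these data known. The naming rule covered clusters inside the complexes, those nearest each edge and the 3 longest uncovered stretches of each complex. These stretches are all given by coordinates, but of the clusters mainly those found in both replicates are. The gene table is on release 6 and served for names and gene order only. Alternatives covered the score, the list, the joining of neighbours, the edges, the windows, the overlap rule and each replicate alone.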

Additional observations from a re-analysis of the deposited data

How the results depend on the processing

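The comparison with flanks, its alternatives and the alternative without clusters that cross an edge were chosen after seeing the data. Of 83 values recomputed, 48 moved by no more than the spread between replicates (or 1.5 times for counts), and no difference changed sign. Of these 48, 30 came from leaving out 1 replicate, where 2 values moved further. Leaving out 1 of 2 replicates cannot move their mean by more than that spread, so these say little. Among the other alternatives, 18 values stayed within the spread and 33 moved further. With only the higher-scoring 50% of clusters kept, 1.5 and 2 clusters on average remained in the Antennapedia and bithorax complexes and covered 4.29% and 1.95% of them. Those of the bithorax complex crossed an edge, apart from the cluster from 12692265 to 12695539 in replicate 2. The clusters kept covered 12.4% and 25.3% of the 350 kb below and above the Antennapedia complex, and 32.5% and 31.1% below and above the bithorax complex. The share of windows below the bithorax complex became 2.51%, the longest uncovered stretches 293 kb and 207 kb, and the bithorax complex minus its flanks -29.9 points. The combined list gave 18.7% and 16.2% for the complexes, 25 clusters in each, 25.7% and 20.2% of windows below them, and -30.9 points for the bithorax complex minus its flanks. Its flank values were 18.7% and 48.8% below and above the Antennapedia complex, and 50.5% and 43.6% below and above the bithorax complex. Edges moved 20 kb inwards gave 7.47% and 5.77%, and 20 kb outwards 17.3% for the bithorax complex, which takes in its dense flanks by construction. Without the clusters that cross an edge it was covered to 7.34%. Non-overlapping windows put 12.0% below the bithorax complex, and joining clusters up to 500 bp apart gave 44.8% for the 350 kb below it. Reciprocal overlap of 50% left 4 and 3 shared clusters on average, against 9 and 5. With flanks of 100 kb the complexes lay at -10.0 and -52.3 points. For each of these, the cause was not tested, apart from those set by construction. Leaving out either replicate, the longest stretch lay between 61.5 kb and 100.1 kb in the Antennapedia complex and between 82.9 kb and 130.0 kb in the bithorax complex. The 2 values that moved further on leaving out 1 replicate are among these. A stretch open in both lists cannot be longer than the longest one of a single list, so these values could not fall.

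No paired analysis was possible because lists exist for the ChIP libraries alone, so no 2 groups with values share numbers. Depth is unknown, and whether narrow clusters found in 1 list were missed in the other cannot be told here.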

Other observations

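Windows covered less than the bithorax complex fell into 20 separate regions of 3R, and those covered less than the Antennapedia complex into 19. Overlapping windows were joined, so a whole region could be covered more than the complex. Region means ran from 7.28% to 12.9% for the bithorax complex, itself at 8.99%. For the Antennapedia complex, itself at 11.4%, they ran from 8.93% to 18.8%. The longest region for the bithorax complex ran from 21870001 to 22730001, with a mean coverage of 7.28%. One of them, from 12990001 to 13350001 (8.01%), began inside the 350 kb above the bithorax complex. The genes in these regions were not analysed here.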
